A study of Homo sapiens with 8 samples.

Results

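The chaperonin genes are the 10 genes that encode the cytosolic chaperonin CCT (TCP1, CCT2, CCT3, CCT4, CCT5, CCT6A, CCT7 and CCT8) and the mitochondrial chaperonin (HSPD1 and HSPE1). They were chosen by gene symbol, and all 10 are listed among the 26360 genes that both expression tables hold. Chaperonins are barrel-shaped protein folding machines that close around an unfolded protein and release it after ATP is hydrolysed. CCT, also called TRiC, stacks a pair of rings built from all 8 subunits and is best known for folding actin and tubulin. HSPD1, the mitochondrial Hsp60, forms the chamber of the matrix chaperonin, and HSPE1, or Hsp10, is the lid of that chamber.

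RNA-seq of Kyse510 cells, an established human line of esophageal squamous cell carcinoma (ESCC), was available as 8 libraries, 1 for each condition. The inhibitor libraries came from cells given DMSO vehicle, 7 µM SP2509 (an inhibitor of the histone demethylase LSD1), 7 µM UNC0642 (an inhibitor of the histone methyltransferase G9a), or both inhibitors for 2 days, and the same doses were assumed for the combination, which is named without a dose of its own. The knockdown libraries came from stable Kyse510 lines carrying a Tet-inducible shRNA against LSD1 (shLSD1) or G9a (shG9a), which were selected with puromycin for 14 days and then kept without doxycycline (Dox) or given Dox for 2 days. Each line carries 1 hairpin, and by its label the control of each induced library is the same line without Dox, so an action of Dox itself cannot be told apart from the knockdown. The study also describes a nonsilencing hairpin as the control of the LSD1 knockdown, and its G9a and double knockdowns as analysed the same way. The labels were followed, and no library labelled as such was analysed here. Total reads per library, recovered from the steps of the FPKM values, were 15662035 to 17889466. KDM1A, which encodes LSD1, had 26.0 FPKM without and 6.29 FPKM with Dox in the shLSD1 line, and EHMT2, which encodes G9a, had 7.85 and 4.76 FPKM in the shG9a line. The squamous markers KRT5 and TP63 and the general epithelial markers EPCAM and CDH1 were expressed at 18.3 FPKM or more in all 8 libraries. The fibroblast markers COL1A2 and PDGFRB and the leukocyte marker PTPRC stayed below 0.2 FPKM. The fibroblast marker COL1A1 was listed at 2.92 to 5.36 FPKM in all 8 libraries, and was called up with SP2509 (0.64) and the combination (0.68) and down in the shG9a line (-0.46). The part of such cells in the results was not tested. The squamous keratins KRT14 and KRT6A were low, at 1.10 to 10.1 and 0.676 to 20.03 FPKM, and both were called up in each inhibitor library and in the shG9a line. KRT5 was called up with SP2509 (0.78) and in the shG9a line (0.81). It was called down with UNC0642 (-0.49), the combination (-1.39) and in the shLSD1 line (-1.32). TP63 was called up with SP2509 (0.68) and down with the combination (-2.05). CDH1 was called up with SP2509 (0.89), and EPCAM with UNC0642 (0.40) and the combination (0.57). The squamous marker SOX2 ranged from 0.313 FPKM with SP2509 to 38.8 FPKM in the induced shG9a line.

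Levels are given in FPKM, a read count scaled by gene length and library total. A change is the log2 ratio of (FPKM + 1) in a treated library over (FPKM + 1) in its control, and a gene was called up or down when this ratio reached 1.3-fold with at least 1 FPKM in at least 1 of the 2 libraries. With 1 library per condition no difference has a replicate check and no test between conditions was made. The intervals below are 95% exact binomial (Clopper-Pearson) intervals of the read ratio, and they cover counting error only. As a further measure of scale, the uninduced shG9a and shLSD1 lines, which are different lines and not replicates, differed by -0.06 to 0.19 (log2) over the 10 chaperonin genes, and none of the 10 reached 1.3-fold, which 7.55% of 12449 genes did. The FPKM ratios of most genes were shifted in 3 comparisons. Trimmed-mean (TMM) scaling removed a shift of -0.29 (log2) with SP2509, 0.14 in the shLSD1 line and 0.22 in the shG9a line, and centring on the median of all genes that reached 5 FPKM removed -0.09, 0.11 and 0.14. The members are therefore also given relative to these shifts.

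Promoter sequence of the chaperonin genes was read from the RefSeq promoter table (build GRCh38.p14, 250 bases before to 50 bases after a start site), since members that move together may be read beside the letters at their starts. Of the 10 genes, 9 had a window there, with 12 windows in all, and CCT6A had no entry. The windows were searched on both strands for the heat shock element in its 2 phases (TTCNNGAA and GAANNTTC, which can overlap each other), the E-box CACGTG and the CCAAT box. The heat shock stretches are shown first, because HSPD1 is itself known as a heat shock gene. Capitals mark the matching letters, and each sequence runs 5′ to 3′ on the strand of its gene.

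HSPD1, chr2:197500061-197500090, minus strand, 245 bases before a start: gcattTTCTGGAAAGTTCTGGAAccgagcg
CCT4, chr2:61888607-61888636, minus strand, 38 bases after a start: cccgacgccggcgccgctTTCTGGAAggtt
TCP1, chr6:159789815-159789844, minus strand, 231 bases before a start: tcgtttgaggcGAAGGTTCaacctcttccc
CCT2, chr12:69585789-69585818, plus strand, 89 bases before a start: cccggagcgaaGAAATTTCtagtgtgggac

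The HSPD1 stretch holds 3 overlapping matches in 18 bases, and the other genes hold 1 match each. TTCNNGAA was found in 2 of the 12 windows and GAANNTTC in 3, against 7.74% and 6.77% of all 35116 promoter windows of the same length. CCAAT was found in windows of 4 members (TCP1, CCT2, CCT3 and CCT8), and in 34.6% of all windows. The 250 bases before the upstream start of CCT2 are shown as an example with its CCAAT box in capitals.

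CCT2, chr12:69585209-69585458, plus strand: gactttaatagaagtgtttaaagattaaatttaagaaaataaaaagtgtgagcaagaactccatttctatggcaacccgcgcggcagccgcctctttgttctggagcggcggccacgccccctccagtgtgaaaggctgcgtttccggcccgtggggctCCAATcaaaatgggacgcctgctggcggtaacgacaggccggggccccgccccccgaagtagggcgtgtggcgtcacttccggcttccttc

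HSPD1 and HSPE1 lie head to head on chromosome 2, and the HSPE1 start is 105 bases from the nearer HSPD1 start. Both of their windows therefore hold the same E-box, which 7.26% of all windows hold.

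HSPE1, chr2:197500345-197500374, plus strand, 22 bases before the start: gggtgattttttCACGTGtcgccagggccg

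The 8 CCT subunit genes lie on 7 chromosomes and were expressed at similar levels per length in every library. The highest subunit stood 2.01 to 2.75 times above the lowest in each of the 8 libraries. In vehicle, the order ran from CCT3 (157.7 FPKM) through CCT4 (142.6 FPKM), CCT5 (136.9 FPKM), CCT7 (128.0 FPKM), CCT6A (102.2 FPKM), CCT8 (96.5 FPKM) and TCP1 (85.9 FPKM) to CCT2 (72.4 FPKM). CCT3 was the highest subunit in 6 libraries, and CCT4 was the highest with SP2509 and in the uninduced shLSD1 line. CCT2 was the lowest in 6 libraries, CCT6A with SP2509 (40.5 FPKM) and TCP1 in the uninduced shLSD1 line (43.0 FPKM). The uninduced lines ordered CCT3, CCT7 and CCT4 in reverse, and CCT5 against CCT8 and TCP1 against CCT2 in opposite ways. The order of these subunits thus varied between lines that had received no Dox. Summed over the 8 subunits, the level was 922 FPKM in vehicle and 531 and 563 FPKM in the uninduced shLSD1 and shG9a lines, as read from tables that were made separately.

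**Figure D1:**
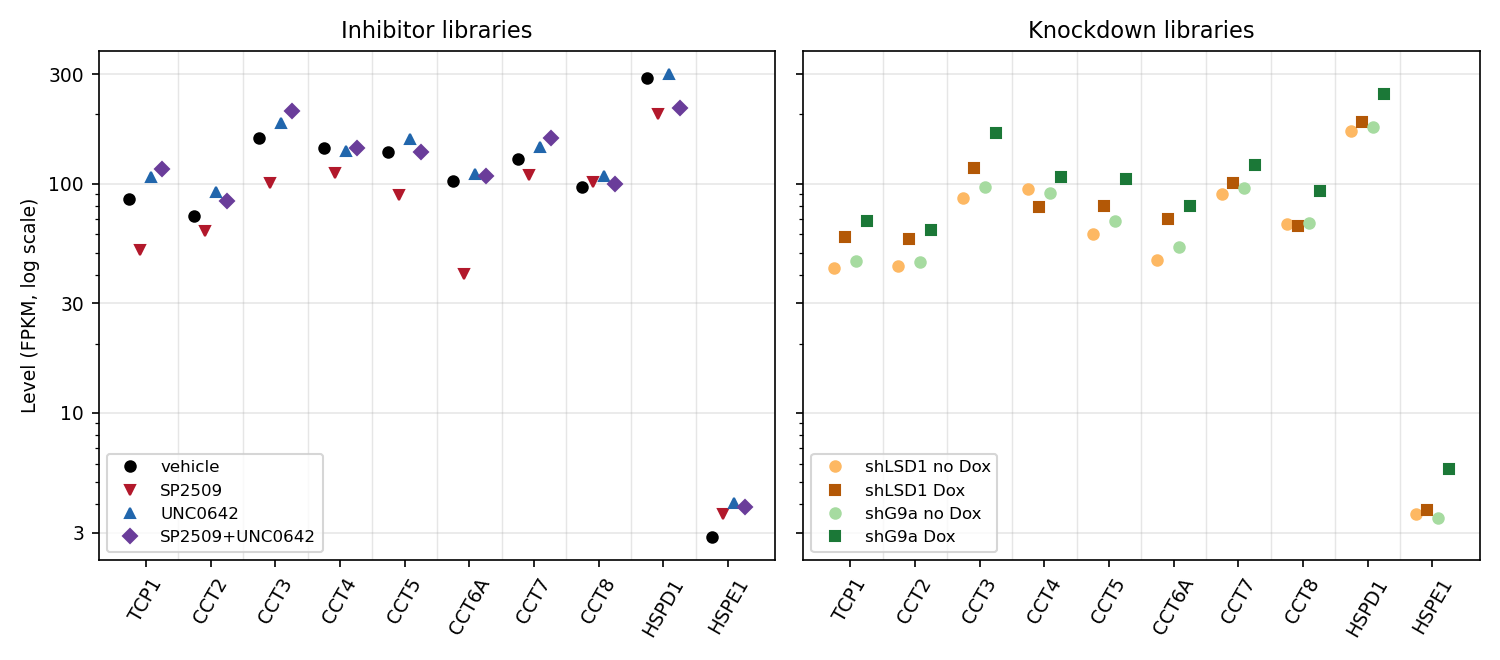
FPKM of the 10 chaperonin genes (log axis) in the 4 inhibitor libraries (left) and the 4 knockdown libraries (right), 1 point per library. The 8 CCT subunits lie between 40.5 and 207.6 FPKM, HSPD1 lies above every subunit of the same library, and HSPE1 lies at 2.87 to 5.67 FPKM.

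HSPD1 had the highest level of the 10 genes in every library. Its level was 288.8 FPKM in vehicle, 201.7 FPKM with SP2509, 300.6 FPKM with UNC0642 and 214.4 FPKM under both inhibitors. The 2 shLSD1 libraries had 169.5 FPKM without and 185.2 with Dox, and the shG9a libraries had 176.8 and 246.1. HSPD1 thus stood 1.70 to 2.68 times above the median CCT subunit, with the lowest ratio in the combination.

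HSPE1 (ENSG00000115541, chromosome 2 from 197499994 to 197503457) works with HSPD1 in the same complex but was listed at only 2.87 FPKM in vehicle, 3.64 FPKM with SP2509, 4.04 FPKM with UNC0642 and 3.90 FPKM under both inhibitors. The knockdown libraries gave 3.62 and 3.76 FPKM (shLSD1 without and with Dox) and 3.49 and 5.67 FPKM (shG9a). These values rest on 89 to 194 reads, and the level of HSPD1 was 43.4 to 100.5 times higher. Near-identical copies of HSPE1 are listed beside it, 12 HSPE1 pseudogenes in the inhibitor table and 8 in the knockdown table, and HSPE1P2 alone reached 9.68 FPKM. How reads shared with such copies were counted is not given in the sources used here, so the level of HSPE1 is uncertain. The GENCODE exons of HSPE1 also share 135 bases with HSPD1 on the opposite strand. Reads of the 2 genes cannot be told apart there unless the counting used strand, which is likewise not given. A larger overlap, 192 bases or 10.5% of the HSPE1 exon bases, is shared with HSPE1-MOB4 on the same strand. Strand cannot separate reads there, and HSPE1-MOB4 is listed in neither expression table.

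The inhibitor and the knockdown of LSD1 were set up to show which genes depend on that enzyme. With SP2509, part of the CCT subunits and HSPD1 were lower than with vehicle. In all, 5 of the 10 members were called down (TCP1, CCT3, CCT5, CCT6A and HSPD1) and 0 up. Over all 13342 genes tested, 39.9% were called down and 21.0% up, and of the highly expressed genes (20 FPKM or more in both libraries) 23.4% were called down and 22.6% up. In these bulk libraries, fewer expressing cells and less RNA per cell cannot be told apart.

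CCT6A, the zeta subunit (ENSG00000146731, chromosome 7 from 56051630 to 56063989), changed most. It had 102.2 FPKM in vehicle and 40.5 with SP2509 and fell by 1.31 on the log2 scale (95% counting interval -1.40 to -1.27). TCP1, the alpha subunit (ENSG00000120438, chromosome 6 from 159778498 to 159789749), had 85.9 and 51.5 FPKM and fell by 0.73 (-0.79 to -0.68). These were the only members still called down after both centring (-1.22 and -0.63) and TMM scaling (-1.02 and -0.43).

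CCT3, the gamma subunit (ENSG00000163468, chromosome 1 from 156308968 to 156367873), had 157.7 and 100.2 FPKM and fell by 0.65. CCT5, the epsilon subunit (ENSG00000150753, chromosome 5 from 10249921 to 10266412), had 136.9 and 88.8 FPKM and fell by 0.62. HSPD1 (ENSG00000144381, chromosome 2 from 197486581 to 197516737) fell by 0.52. All 3 were below their vehicle level under every scaling, at -0.35, -0.32 and -0.22 with TMM, where they did not reach 1.3-fold.

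The other 4 subunits were not called. CCT4, the delta subunit (ENSG00000115484, chromosome 2 from 61868089 to 61888804), had 142.6 FPKM in vehicle and 111.1 with SP2509, a log2 change of -0.36 that falls just short of 1.3-fold. CCT2, the beta subunit (ENSG00000166226, chromosome 12 from 69585334 to 69601570), had 72.4 and 62.3 FPKM, and CCT7, the eta subunit (ENSG00000135624, chromosome 2 from 73233420 to 73253021), had 128.0 and 108.5 FPKM. Their changes were -0.21 and -0.24 as deposited, and their sign turned to 0.08 and 0.06 with TMM scaling. CCT8, the theta subunit (ENSG00000156261, chromosome 21 from 29055805 to 29073797), was the only subunit above its vehicle level, at 96.5 and 101.6 FPKM (0.07). The median of the 8 subunits was -0.49, against -0.21 for all genes and -0.005 for the highly expressed genes. The subunit median was -0.39 after centring and -0.19 with TMM scaling.

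**Figure D2:**
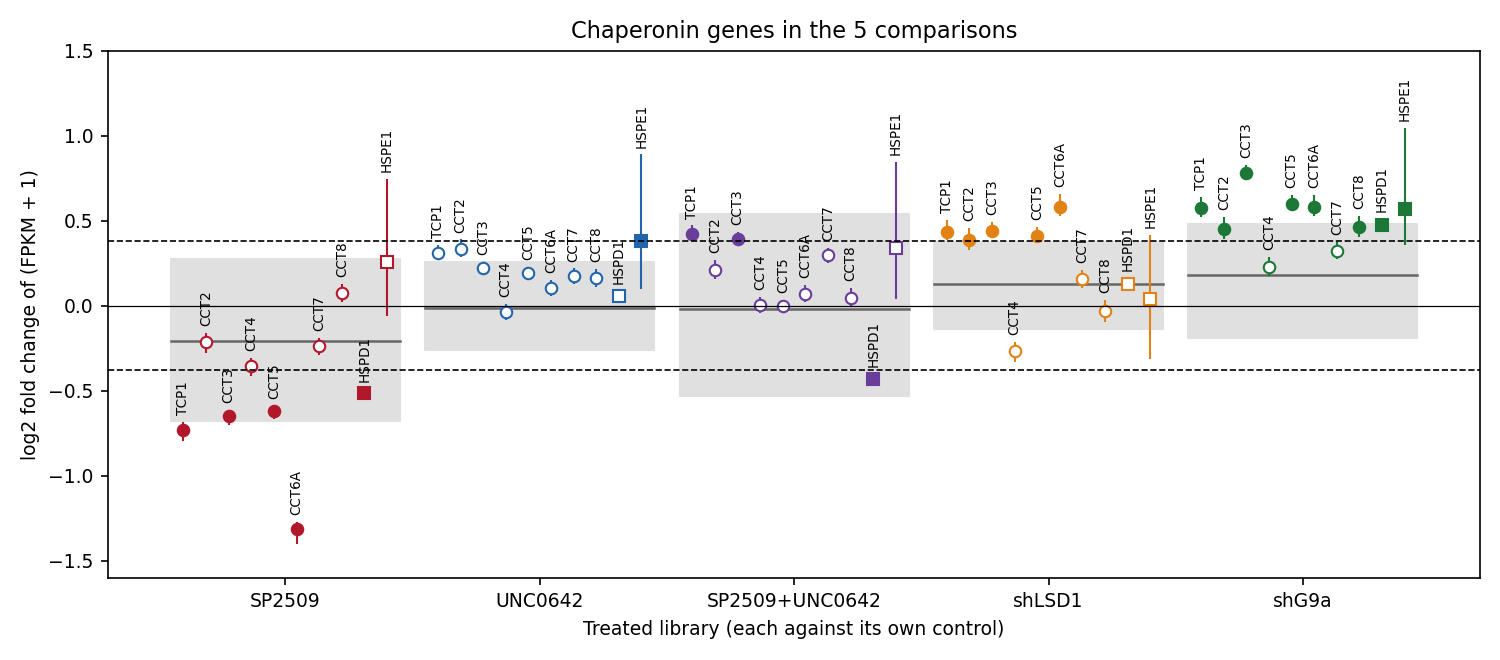
Log2 fold change of (FPKM + 1) of each member in the 5 comparisons, with circles for CCT subunits, squares for HSPD1 and HSPE1, filled symbols for genes called at 1.3-fold (dashed lines) and vertical lines for 95% counting intervals. Grey boxes span the middle 50% of all genes tested and the grey line is their median. The subunits lie mostly below 0 with SP2509 and mostly above 0 in the 4 other comparisons.

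UNC0642 moved the same genes little. Of the 10 members, 1 was called up (HSPE1, 2.87 to 4.04 FPKM, from 89 and 143 reads) and 0 down, where 18.2% of 13244 genes were called up and 16.9% down (13.8% and 9.13% of the highly expressed genes). Without HSPE1, 0 of 9 members were called. The 8 subunits lay in a narrow band from -0.04 (CCT4, 142.6 and 139.0 FPKM) to 0.33 (CCT2, 72.4 and 91.5 FPKM) with a median of 0.18. Their interquartile range was 0.09, against 0.52 over all genes and 0.39 over the highly expressed genes. TCP1 had 106.7 FPKM with UNC0642 (0.31), CCT3 183.9 FPKM (0.22) and HSPD1 300.6 FPKM (0.06).

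The combination differed from SP2509 alone. With both inhibitors, TCP1 (115.6 FPKM, 0.42) and CCT3 (207.6 FPKM, 0.39) were called up against vehicle and HSPD1 (214.4 FPKM, -0.43) was called down, where 31.4% of 13907 genes were called up and 31.7% down (30.3% and 18.9% of the highly expressed genes). The call of CCT3 was lost after centring (0.36), whereas TCP1 and HSPD1 were called under all 3 scalings. CCT6A (107.4 FPKM), CCT5 (136.7 FPKM), CCT4 (143.1 FPKM) and CCT8 (99.8 FPKM) had changes of 0.07, -0.00, 0.00 and 0.05, close to their vehicle level. CCT2 had 84.0 FPKM (0.21) and CCT7 157.3 FPKM (0.30). None of the 8 subunits was called down, and their median was 0.14, against -0.02 for all genes and 0.11 for the highly expressed genes.

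The combination library was also set directly against the SP2509 library, in which the dose of SP2509 was taken to be the same. There 6 of the 8 subunits were called up and 0 down as deposited, where 41.8% of 13658 genes were called up and 24.8% down. After centring 5 were called up and 0 down, and with TMM scaling 3 were called up (CCT6A, TCP1 and CCT3, at 1.02, 0.79 and 0.68) and 1 down (CCT8, -0.39). As deposited, CCT6A was higher by 1.39, TCP1 by 1.15, CCT3 by 1.04, CCT5 by 0.62, CCT7 by 0.53 and CCT2 by 0.43 on the log2 scale. The median of the 8 subunits was 0.57, against 0.20 for all genes, and 0.21 against -0.09 with TMM scaling. HSPD1 had 201.7 FPKM with SP2509 and 214.4 FPKM with the combination (0.09), and was at -0.28 with TMM scaling. The change of the combination minus the sum of the changes of the single inhibitors, which all use the same vehicle library, had a median of 0.41 over the 8 subunits and of 0.19 over all genes. It was 1.28 for CCT6A, 0.84 for TCP1 and 0.82 for CCT3, and 0.03 for HSPD1.

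Knockdown of LSD1 was accompanied by higher levels of most CCT subunits. In the shLSD1 line, 5 of the 10 members were called up with Dox (TCP1, CCT2, CCT3, CCT5 and CCT6A) and 0 down, where 24.8% of 12970 genes were called up and 12.3% down (18.8% and 12.4% of the highly expressed genes). CCT6A had 46.4 FPKM without and 69.9 FPKM with Dox and rose by 0.58 (0.53 to 0.66). TCP1 had 43.0 and 58.6 FPKM (0.44), CCT3 86.2 and 117.3 FPKM (0.44), CCT5 60.04 and 80.1 FPKM (0.41) and CCT2 43.7 and 57.4 FPKM (0.39).

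CCT4 went the other way, with 94.95 FPKM without and 78.7 FPKM with Dox (-0.27), and CCT8 had 66.6 and 65.1 FPKM (-0.03). CCT7 had 90.2 and 100.5 FPKM (0.16). HSPD1 (0.13) and HSPE1 (0.04) were not called, and their sign turned under TMM scaling, to -0.02 and -0.07. The shift of all genes, with a median of 0.13, or 0.06 for the highly expressed genes, may make up a part of these values. Of the members, only CCT6A remained called up after centring (0.47) and TMM scaling (0.44), and CCT4 was then called down (-0.38 and -0.41). The subunit median was 0.40 as deposited, 0.29 after centring and 0.26 with TMM scaling.

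Knockdown of G9a was accompanied by higher values of all 10 members. In the shG9a line, 8 of the 10 were called up with Dox, all but CCT4 and CCT7, and 0 down, where 32.9% of 13080 genes were called up and 17.6% down (26.8% and 17.3% of the highly expressed genes). CCT3 had 96.1 FPKM without and 165.7 FPKM with Dox and rose by 0.78 (0.74 to 0.83). CCT5 had 68.7 and 104.5 FPKM (0.60), CCT6A 53.0 and 79.7 FPKM (0.58) and TCP1 46.0 and 68.9 FPKM (0.57). CCT8 had 67.0 and 92.6 FPKM (0.46) and CCT2 45.5 and 62.6 FPKM (0.45).

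HSPD1 rose by 0.48, with 176.8 and 246.1 FPKM, and this was the only comparison in which it was called up. HSPE1 rose by 0.57, on 114 and 194 reads. CCT7 had 96.0 and 120.4 FPKM (0.32) and CCT4 had 91.2 and 107.0 FPKM (0.23). The subunit median was 0.52, against 0.18 for all genes and 0.11 for the highly expressed genes. The subunit median was 0.37 after centring and 0.30 with TMM scaling. All 10 members stayed above 0 under these scalings, with CCT4 at 0.01 under TMM, and CCT3 (0.64 and 0.56) and HSPE1 (0.43 and 0.38) were called under all 3.

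Set side by side, the inhibitor and the knockdown of LSD1 share no library and gave opposite directions for part of the CCT subunits. TCP1, CCT3, CCT5 and CCT6A were called down with SP2509 and up in the shLSD1 line. Over the 8 subunits, the changes had a Pearson correlation of -0.68 and a Spearman correlation of -0.81, against a Pearson correlation of -0.40 over 11769 genes. The 8 points share the same 4 libraries and are not independent. The 4 subunits that fell furthest with SP2509 were also the 4 that rose furthest with Dox, and CCT4 was below its control in both. For G9a, 7 of the 8 subunits were above their control in both UNC0642 and the shG9a line, with correlations of 0.49 (Pearson) and 0.31 (Spearman), and with -0.11 (Pearson) over 11906 genes.

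**Figure D3:**
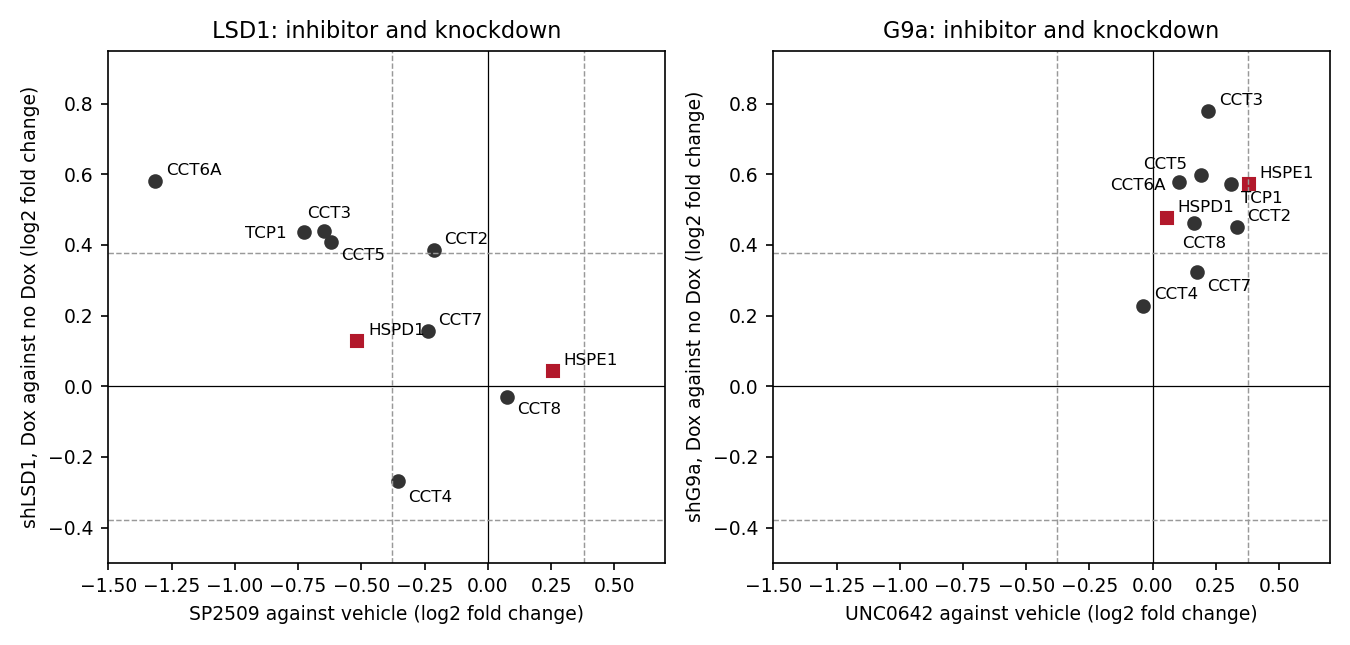
Log2 fold change of each member with an inhibitor (horizontal axis) and with the knockdown of the same enzyme (vertical axis), LSD1 on the left and G9a on the right, with circles for CCT subunits, squares for HSPD1 and HSPE1, and dashed lines at 1.3-fold. CCT6A lies at -1.31 with SP2509 and 0.58 in the shLSD1 line, and all members lie above 0 in the shG9a line.

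Although the subunits assemble into 1 complex, their relative levels varied between libraries. The level of each subunit was expressed as log2 FPKM, without 1 added, minus the mean of the 8 subunits of the same library. A scaling of the whole library does not change this value. CCT6A varied most, from -0.95 with SP2509 to -0.12 in the induced shLSD1 line, followed by CCT8, from -0.34 with the combination to 0.38 with SP2509. CCT4 ranged from 0.05 in the induced shLSD1 line to 0.59 in the uninduced one. It was closer to the mean of the subunits in both induced lines than in the same lines without Dox (0.16 and 0.43 for shG9a). CCT2 varied least, from -0.63 in vehicle to -0.33 with SP2509. The interquartile range of the 8 fold changes was 0.44 with SP2509, 0.28 with the combination, 0.33 in the shLSD1 line and 0.17 in the shG9a line. It was 0.95, 1.08, 0.51 and 0.67 over all genes, and 0.68, 0.76, 0.48 and 0.58 over the highly expressed genes.

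**Figure D4:**
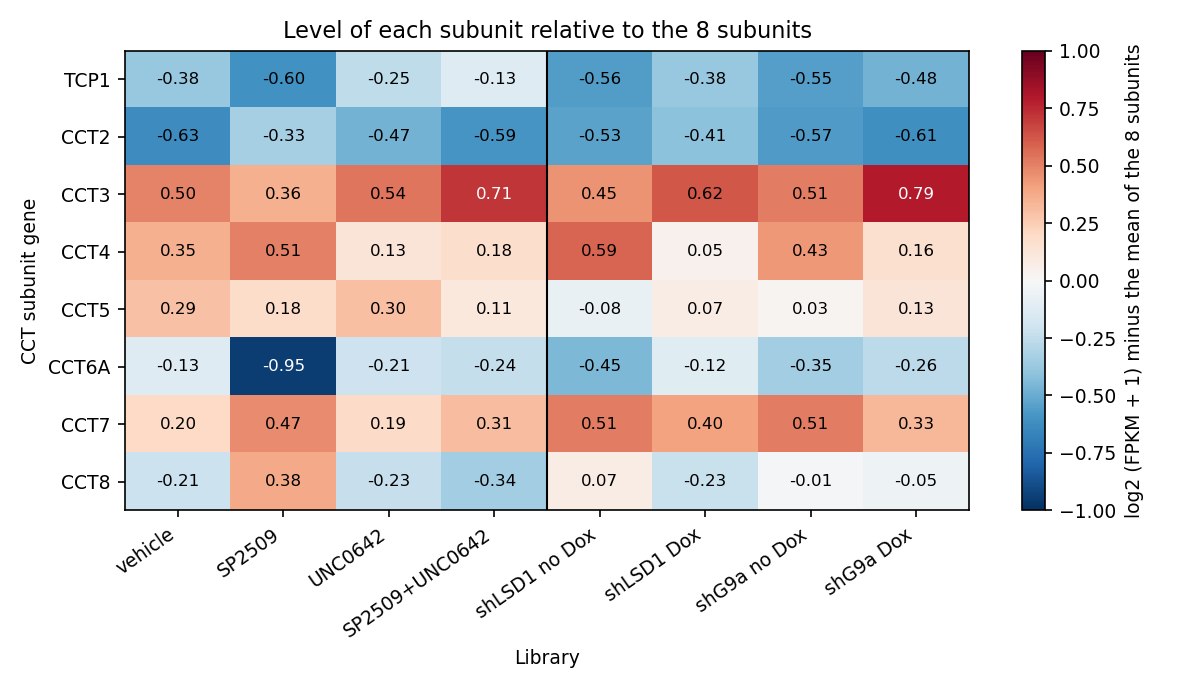
Level of each CCT subunit relative to the mean of the 8 subunits in the same library (log2 of FPKM, colour and printed value), by library. The values are without 1 added, although the colour bar names FPKM + 1. CCT3 and CCT7 are above the mean and TCP1, CCT2 and CCT6A below it in all 8 libraries, and CCT6A with SP2509 has the lowest value, -0.95.

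Near-copies and overlapping genes limit some of these values. CCT6P1, a copy of CCT6A, reached 3.57 FPKM and HSPD1P1, a copy of HSPD1, reached 4.75 FPKM, and both are low beside their parents. CCT6B, the paralog of CCT6A, stayed below 0.6 FPKM in all 8 libraries. In GENCODE, 30.8% of the exon bases of CCT5 and 10.2% of those of CCT4 are shared with a noncoding gene on the opposite strand, and 9.30% of those of TCP1 with ACAT2. The part of these overlaps in the values was not tested.

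The genes that work around CCT gave mixed directions. Prefoldin hands unfolded chains to CCT, and of its 6 subunits 1 was called up and 2 down with SP2509, 0 and 0 with UNC0642, 1 and 0 with the combination, 0 and 0 in the shLSD1 line, and 1 and 1 in the shG9a line. Of all genes, 21.0% were called up and 39.9% down with SP2509, 18.2% and 16.9% with UNC0642 and 31.4% and 31.7% with the combination. The shares were 24.8% and 12.3% in the shLSD1 line and 32.9% and 17.6% in the shG9a line. PFDN6 had 12.7 FPKM in vehicle and 8.35 with SP2509, and 10.5 and 17.3 FPKM in the shG9a line. Among 4 CCT cofactors, TXNDC9, a phosducin-like regulator of CCT, went the way of the subunits. It had 7.23 FPKM in vehicle, 3.53 FPKM with SP2509 (-0.86), 8.44 FPKM with UNC0642 and 10.6 FPKM under both inhibitors (0.49), and it rose by 0.66 and 0.55 in the shLSD1 and shG9a lines. The other cofactors did so only in part. PDCL3 was at 0.09 with SP2509, -0.12 with the combination and -0.14 in the shLSD1 line. PDCL and PDCD5 were at -0.09 and -0.08 in the shG9a line, where the median of the 4 cofactors was 0.02, against 0.18 for all genes.

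The client genes of CCT differed in direction among themselves, with calls both up and down in 4 of the 5 comparisons. Of 12 client genes tested, 5 were called up and 4 down with SP2509, 7 and 0 with UNC0642, 5 and 2 with the combination, 4 and 4 in the shLSD1 line, and 6 and 2 in the shG9a line. Calls in both directions were also common among all genes, with 21.0% up and 39.9% down with SP2509. The shares were 18.2% and 16.9% with UNC0642 and 31.4% and 31.7% with the combination. In the knockdowns they were 24.8% and 12.3% (shLSD1) and 32.9% and 17.6% (shG9a). ACTG1, which encodes cytoplasmic gamma actin, had 744 FPKM in vehicle and 2353 FPKM with SP2509 (1.66), and with Dox it fell in both knockdown lines, in shLSD1 from 1795 to 681 FPKM and in shG9a from 1674 to 778 FPKM. ACTB, beta actin, had 816 FPKM in vehicle and 1560 with SP2509, and 1100 and 610 FPKM in the shLSD1 line. Both actin genes were thus called opposite to CCT6A and TCP1 with SP2509 and in the shLSD1 line. TUBA1B, TUBA1C, TUBB4B and TUBG1, which encode tubulins, were called the same way as CCT6A and TCP1 in both (-0.76, -0.70, -0.66 and -0.65 with SP2509, 0.50, 0.67, 0.43 and 0.43 in the shLSD1 line). Other tubulin genes differed. TUBB2A was called the way of the actin genes in both (1.33 and -0.66). TUBA1A was called up with SP2509 (1.12) but not called in the shLSD1 line (-0.35), and TUBB and TUBB6 were called in neither. With TMM scaling, 6 client genes were called up and 2 down with SP2509, and 1 up and 6 down in the shLSD1 line. TUBB, a beta tubulin gene, rose from 181 to 304 FPKM with UNC0642, and shG9a induction took it from 116.7 to 234.8 FPKM.

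The cytosolic heat shock genes, which also fold cytosolic proteins, were called up more often than down in 4 of the 5 comparisons. Of 15 genes, 3 were called up and 7 down with SP2509 (median -0.24), 8 and 0 with UNC0642 (0.51), 9 and 1 with the combination (1.02), 6 and 2 in the shLSD1 line (0.30), and 12 and 1 in the shG9a line (0.60). The medians of all genes tested were -0.21, -0.01, -0.02, 0.13 and 0.18 in the same order. The SP2509 median of the list thus lay close to that of all genes. With TMM scaling it was 0.05, above 0, with 5 called up and 2 down. The TMM counts were 9 up and 0 down for UNC0642 and 9 and 1 under both inhibitors. For shLSD1 they were 4 and 3, and for shG9a 8 and 2. All genes tested were also called up more often than down for UNC0642 (18.2% and 16.9%), shLSD1 (24.8% and 12.3%) and shG9a (32.9% and 17.6%). Their shares were 31.4% and 31.7% under both inhibitors, and 21.0% and 39.9% for SP2509. HSPA8, the constitutive Hsp70, had 99.4 FPKM in vehicle, 66.8 FPKM with SP2509, 252.9 FPKM with UNC0642 and 262.1 FPKM under both inhibitors. With Dox it rose in both lines, from 63.2 to 127.5 FPKM (shLSD1) and from 66.6 to 279.2 FPKM (shG9a). DNAJA1, an Hsp40 cochaperone of Hsp70, had 37.3, 23.5, 77.1 and 159.7 FPKM in the same 4 inhibitor libraries. These changes of HSPA8 and DNAJA1 were larger than those of any CCT subunit with UNC0642 and with the combination, where the subunits lay between -0.04 and 0.42. Other genes of the list went other ways. DNAJB1, another Hsp40, was called up with SP2509 (0.62) and down in the shLSD1 (-0.72) and shG9a (-0.43) lines. HSPB1, a small heat shock protein, was called up with SP2509 (0.77) and down with the combination (-1.20), and HSPA1A, an inducible Hsp70, was called down in the shLSD1 line (-0.81).

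The mitochondrial genes were called down at least as often as up in every comparison. Of 9 other mitochondrial chaperones and matrix proteases tested, 5 were called down and 0 up with SP2509, 4 and 0 with UNC0642, 4 and 2 with the combination, 1 and 1 in the shLSD1 line, and 3 and 1 in the shG9a line. Of all genes tested, 39.9% were called down and 21.0% up with SP2509, 16.9% and 18.2% with UNC0642, 31.7% and 31.4% with the combination, 12.3% and 24.8% in the shLSD1 line, and 17.6% and 32.9% in the shG9a line. HSPA9, the mitochondrial Hsp70, had 220.9 FPKM in vehicle, 107.7 FPKM with SP2509, 146.0 FPKM with UNC0642 and 145.9 FPKM under both inhibitors. In the shG9a line, in which HSPD1 rose, HSPA9 fell from 101.1 to 53.6 FPKM. LONP1, a matrix protease, was called down in all 5 comparisons, with changes from -1.18 to -0.44, and TRAP1, the mitochondrial Hsp90, had changes of -0.92 with SP2509 and -1.40 with the combination. Of 3 stress transcription factors, DDIT3 was called down in all 5. ATF4 was called down with UNC0642 (-0.45) and in the shG9a line (-0.83) and up with the combination (0.50), and ATF5 down with SP2509 (-1.79) and UNC0642 (-0.50) and up in the shLSD1 (0.76) and shG9a (0.39) lines.

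**Figure D5:**
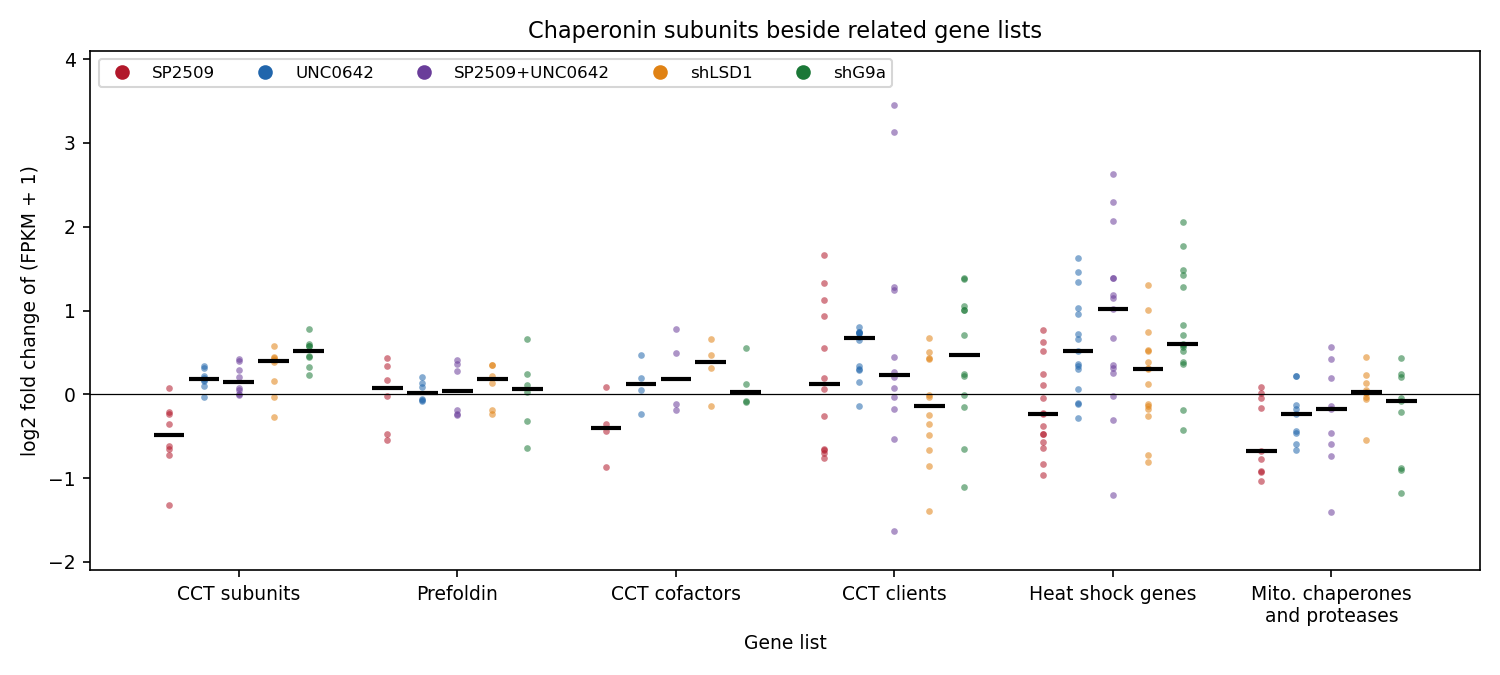
Log2 fold change of (FPKM + 1) of each gene (points) and the median (black bar) of the CCT subunits and 5 related lists in the 5 comparisons, coloured by comparison. The CCT subunits lie in a narrower range than the client and heat shock genes, which are longer lists. The prefoldin subunits lie in a narrower range than the CCT subunits with SP2509, UNC0642 and in the shLSD1 line. In the other comparisons the prefoldin range is wider. The heat shock median with the combination, 1.02, lies above the subunit median of 0.14.

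To find the genes whose pattern was most like that of the subunits, the 5 changes of each of 1161 genes that reached 20 FPKM in all 8 libraries were compared with the medians of the 8 subunits by Euclidean distance. Besides the members, the nearest included LSM4, BANF1, MOB1A, YWHAB, EID1, DNAJC8, UBA1, SYPL1 and ERG28, at distances of 0.18 to 0.27. LSM4, a subunit of RNA-binding Sm-like rings, had changes of -0.45, 0.09, 0.27, 0.47 and 0.50 in the order SP2509, UNC0642, combination, shLSD1 and shG9a. Among the members themselves, CCT5 ranked 4, CCT2 16, TCP1 30, CCT3 32, CCT7 41, HSPD1 149, CCT8 194, CCT4 242 and CCT6A 313. CCT6A was thus the subunit farthest from the subunit medians.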

How the data were processed

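Each library was given its condition from its label. The authors removed low-quality and adaptor reads, mapped paired reads of 150 bases to the human genome (GRCh38), and deposited FPKM values in 2 tables, with 31582 genes in the inhibitor table and 28942 in the knockdown table. The aligner, the counting tool and the use of strand are not given in the sources used here. The annotation columns were used only for symbol, type and position.

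The members and lists were chosen with earlier results of these data known. Each treated library was compared with its own control as log2 of (FPKM + 1), without a test between conditions. The fold threshold of 1.3 is that of the study's methods, and its p threshold was not part of the call. An exact binomial p on the recovered reads, which compares 2 libraries and not the conditions, served only as an alternative. Named genes were the 10 members, KDM1A and EHMT2, the largest rise and fall of each list, listed genes named for contrast, and the 10 genes nearest to the CCT medians, of which 1 is not reported here. Reads were recovered from the steps of the FPKM values: in each library 100% of genes with 1 exon lay on whole-read steps, and the recovered reads summed to 97.7% to 98.1% of the total. The recovery of reads per gene was tested on simulated data with the library totals given. The recovery of the totals was not part of that test. Intervals from these reads cover counting error only. Exon overlaps were read from GENCODE release 44, a later annotation of the same build. Alternatives were other pseudocounts, filters, fold thresholds, scalings, backgrounds and controls. The direct comparison of the combination with SP2509, the comparison of the uninduced lines, the motif search, the other scalings of the combination against SP2509 and of the lists, and the count without HSPE1 were added after the data were seen. Python with numpy, pandas, scipy and matplotlib was used.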

Additional observations from a re-analysis of the deposited data

Results flagged for a closer look

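TCP1, CCT3, CCT5 and CCT6A were called in opposite directions by the inhibitor and the knockdown of LSD1, down with SP2509 and up in the shLSD1 line. The change in the shLSD1 line minus the change with SP2509 was 1.90 on the log2 scale for CCT6A, 1.16 for TCP1, 1.09 for CCT3 and 1.03 for CCT5. With 1 library per condition, these differences were not tested. Under TMM scaling, which moves the SP2509 and shLSD1 ratios towards each other, CCT6A was still called in both comparisons (-1.02 and 0.44), whereas TCP1 was called only with SP2509 (-0.43 and 0.30), and CCT3 (-0.35 and 0.30) and CCT5 (-0.32 and 0.27) in neither.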

How the results depend on the processing

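No paired analysis was possible because each condition has 1 library. For the same reason no library could be left out. Pseudocounts of 0.1 and 0 left the counts of members called within 1.5 times and the CCT medians within the counting interval in all 5 comparisons. An added exact binomial p under 0.05 removed no member call, and it cannot alter the medians. No filter, a minimum of 5 FPKM, protein-coding genes only and genes in both tables only were applied to the counts over all genes alone. They could therefore not move the member counts or the CCT medians. HSPE1, the only member called with UNC0642, lay below 5 FPKM in both libraries (2.87 and 4.04 FPKM), so its call would not pass that minimum. No called value changed sign under any alternative. The fold threshold and the scaling moved the counts most. At 1.5-fold, 0 members were called up with UNC0642, 0 up and 0 down with the combination, 0 up in the shLSD1 line and 2 up in the shG9a line. At 2-fold, 1 member was called down with SP2509, and 0 were called up with UNC0642, up or down with the combination, up in the shLSD1 line or up in the shG9a line. With ratios centred on the median, 1 member was called up with the combination, 1 up and 1 down in the shLSD1 line and 5 up in the shG9a line, and the CCT median was -0.39 with SP2509, 0.29 in the shLSD1 line and 0.37 in the shG9a line. With TMM scaling, 1 member was called up and 2 down with SP2509, 1 up and 1 down in the shLSD1 line and 2 up in the shG9a line, and the CCT median was -0.19, 0.26 and 0.30, respectively. With the mean of the 2 uninduced lines as control, 2 members were called up in the shLSD1 line, with a CCT median of 0.33. For the combination against SP2509, added after seeing the data, the CCT median was 0.46 after centring and 0.21 with TMM scaling, where 3 subunits were called up. Without HSPE1, which was chosen after seeing the data, 0 members were called with UNC0642.

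Of all genes called with SP2509, 34.5% were up as deposited, 41.3% after centring and 52.5% with TMM scaling. The same shares were 66.8%, 50.7% and 49.9% in the shLSD1 line and 65.2%, 50.03% and 45.1% in the shG9a line. Over all genes, 2807 were called up and 5318 down with SP2509 at 1.3-fold against 1101 and 1736 at 2-fold, 2410 and 2242 against 634 and 413 with UNC0642, 4370 and 4413 against 1811 and 1331 with the combination, 3219 and 1599 against 436 and 424 in the shLSD1 line, and 4305 and 2298 against 671 and 788 in the shG9a line. At 1.5-fold the counts that moved by over 1.5 times were 1450 up and 1168 down with UNC0642, 1591 up and 970 down in the shLSD1 line and 2407 up in the shG9a line, and with TMM scaling they were 4247 up with SP2509 and 2600 up in the shG9a line. A minimum of 5 FPKM, which tests fewer genes, gave 1624 up and 2826 down with SP2509, 1274 and 1117 with UNC0642, 2557 and 2446 with the combination, 1845 and 894 in the shLSD1 line and 2459 and 1383 in the shG9a line, and protein-coding genes alone gave 1446 down with UNC0642. Counting error is small for 9 of the 10 members, and for HSPE1 the reads do not separate its changes with SP2509 (-0.06 to 0.75) and in the shLSD1 line (-0.31 to 0.42) from 0.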
